A study of Homo sapiens with 6 samples.

Results

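The collagen alpha chain genes were examined in the J82 line, which was established from a human bladder cancer, with and without CRISPR/Cas9 targeting of FOXC1, which encodes a forkhead transcription factor. The members were the protein-coding genes of the count table whose symbol reads COL, a number, A, and a number. They came to 44 of the 57820 genes in the table. RNA-seq had been carried out on 6 libraries, of which 3 were labelled control and 3 FOXC1 KO. Per the labels and the study's methods, the knockout cells had received the lentiCRISPRv2 vector with a FOXC1 guide and puromycin selection, the controls were vector control cells, and no other allele or agent was listed for either group. The methods speak of knockout clones, and the sources used here do not say whether the 3 libraries of a group came from separate clones or cultures, so p-values measure only the spread between these libraries.

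Collagens are extracellular matrix proteins whose chains wind around each other in trimers. Fibrillar chains pack into the cables that give tissue its tensile strength, type IV chains form the sheet-like network of basement membranes, FACIT chains sit on fibril surfaces and link them to other matrix, and transmembrane collagens are anchored in the cell surface. In the bladder wall most fibrillar collagen is made by fibroblasts and muscle cells, while urothelial cells rest on a basement membrane of type IV collagen.

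The targeted gene was measured first. FOXC1 (ENSG00000054598.5) stood at 18.4, 16.9 and 19.3 CPM in the control libraries and at 24.1, 22.2 and 21.1 CPM in the KO libraries, where CPM is the count scaled to a common library size after TMM. The KO level was 1.23-fold higher, a log2 fold change of 0.30 with an SE of 0.09 (edgeR quasi-likelihood adjusted p = 0.0127), and did not reach the 1.3-fold threshold. The FOXC1 transcript was therefore no lower where the labels gave a knockout, and it gave no check of them. Per the study's methods the knockout had been checked by western blot, and the protein was not analysed here. Total counts ran from 18408134 to 25350908 per library. The keratins of a urothelial line were abundant, with KRT8 at 1658 CPM in control and 1091 CPM in KO, whereas UPK1A, UPK1B, UPK2, UPK3A, KRT5, KRT20 and CDH1 had at most 5 counts in any library. Among 16 urothelial and epithelial markers, 6 of the 8 tested were called lower in KO, at the thresholds given below, where 8.39% of all tested genes were. The summed level of the 16 was 3179 to 4001 CPM in control and 2488 to 2765 CPM in KO. The 8 fibroblast markers summed to 401 to 446 CPM in control and 480 to 493 CPM in KO, most of it VIM. Of these, PDGFRA, THY1 and DPT had at most 4 counts in any library, and DCN fell from 18.5 to 10.4 CPM. The 4 endothelial markers matched summed to means of 0.72 and 1.70 CPM and the 5 leukocyte markers to 4.28 and 6.44 CPM, with CD3E at 0 counts. In each of these lists 1 of the 2 tested markers was called higher, where 7.57% of all tested genes were. These were CDH5, with 0, 0 and 1 counts in control and 18, 18 and 26 in KO, and CD14, at 3.52 and 5.38 CPM on average. CDH5 passed the filter on low counts only through the KO libraries, so that the filter itself required a difference. The part of these markers in the collagen results was not tested, and in bulk RNA fewer cells of a type and less RNA per cell cannot be told apart.

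To compare the levels of different chains, counts were divided by the length of the merged exons (RPKM). In control libraries COL3A1, the chain of type III collagen, had the highest level at 51.4 ± 4.08 RPKM (SD, n = 3). It was followed by COL12A1 at 24.8 ± 0.82, COL7A1 at 22.9 ± 1.69 and COL6A1 at 22.7 ± 2.81 RPKM, and these 3 did not differ beyond their spread. In KO libraries COL6A1 led at 34.7 ± 1.44 RPKM and COL12A1 stood at 32.7 ± 3.69 RPKM, a difference within the spread, while COL3A1 ranked 5 at 22.7 ± 0.60 RPKM. The order depended on the length used. With the longest annotated transcript in place of merged exons, COL4A2 ranked 3 in control and 1 in KO, and COL3A1 ranked 1 in control and 7 in KO. The 10 chains with the highest control levels held 91.8% of the summed collagen level in control.

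**Figure D1:**
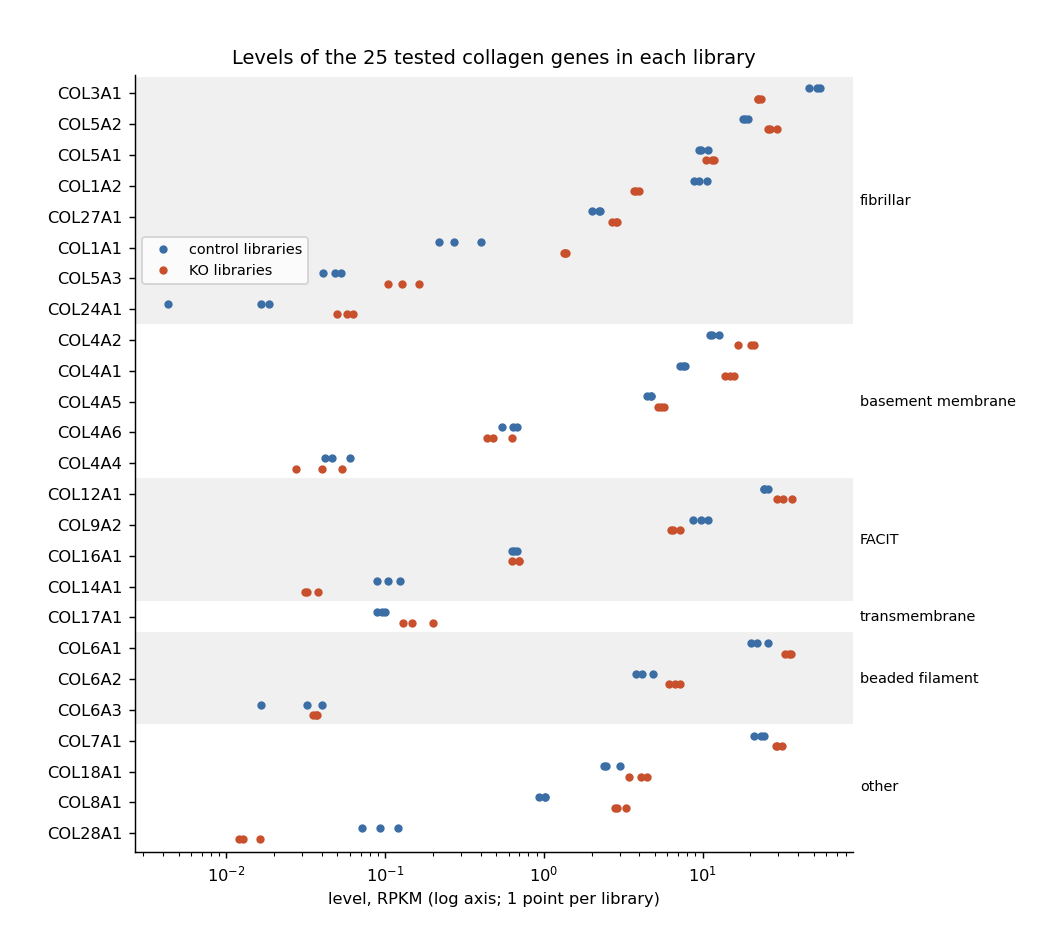
Level of each of the 25 tested collagen genes in each library, in RPKM on a log axis, with genes grouped by class and 1 point per library (blue control, red KO). COL3A1 and COL1A2 lie lower in every KO library than in any control library, while COL1A1 and COL8A1 lie higher, and the levels span from 51.4 RPKM for COL3A1 in control down to under 0.1 RPKM for COL24A1.

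Of the 44 collagen genes, 25 had enough counts to be tested and 19 did not. Calls required a difference of over 1.3-fold and a p under 0.05 after Benjamini-Hochberg adjustment over the 15647 genes tested. Among the 25, COL1A2, COL3A1, COL9A2, COL14A1 and COL28A1 fell and 13 rose. Over all tested genes 8.39% were called lower and 7.57% higher. Restricted to changes over 2-fold, 4 collagens fell and 4 rose, where 2.05% and 2.02% of all genes did. The median log2 fold change of the tested collagens was 0.39 and that of all tested genes was -8e-04, and the median size of the change, regardless of sign, was 0.61 for the collagens and 0.18 for all genes. The control and KO libraries did not overlap for 20 of the 25 collagens, against 41.3% of all tested genes. COL5A3 and COL24A1 passed the filter on low counts through the KO libraries, and COL14A1 and COL28A1 through the control libraries. For these 4 genes the filter itself required a difference, and all 4 are among the collagens counted over 2-fold. The others over 2-fold were COL1A2, COL3A1, COL1A1 and COL8A1. With genes of at least 50 counts on average, 18 collagens remained, of which 3 fell and 9 rose, where 8.34% and 7.01% of all genes did. With DESeq2, 5 of 28 collagens fell and 12 rose, where 5.78% and 6.07% of all genes did.

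**Figure D2:**
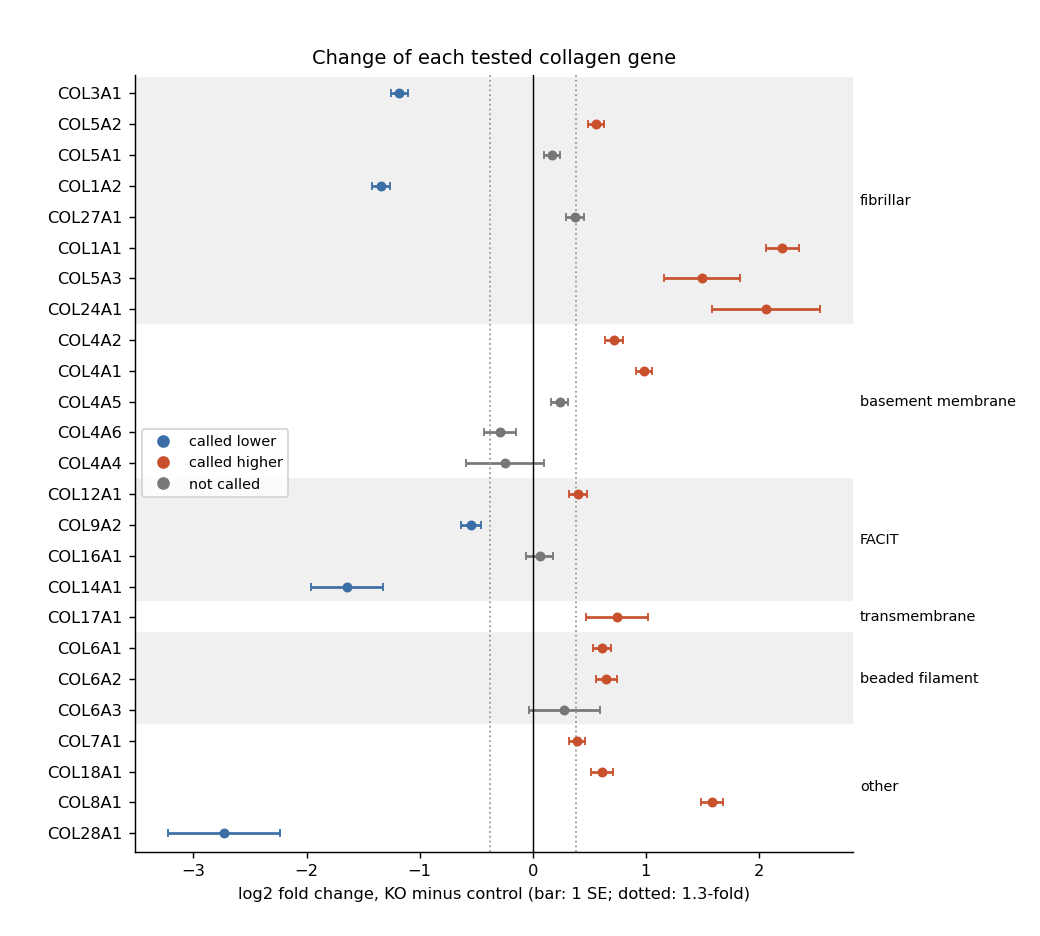
Log2 fold change of KO against control for the 25 tested collagen genes, grouped by class, with bars of 1 SE and dotted lines at 1.3-fold. Called genes are coloured (5 lower in blue, 13 higher in red) and the 7 genes not called are grey. Fibrillar chains lie on both sides of zero, from -1.34 for COL1A2 to 2.21 for COL1A1.

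Fibrillar chains changed in both directions. Of 11 members, 8 were tested, 2 fell, 4 rose, and 2 were not called, and the median log2 fold change was 0.46. COL1A2 and COL3A1, which had been among the higher fibrillar chains, were lower in KO, and COL1A1, COL5A2 and the scarce COL5A3 and COL24A1 were higher.

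COL1A2 (ENSG00000164692.13, hg19 chr7:94024207-94060539, plus strand) encodes the chain that pairs with COL1A1 in type I collagen, the main fibril of skin, bone and tendon. Its level was 115.7, 95.8 and 102.0 CPM in control and 43.2, 41.1 and 39.7 CPM in KO. Every KO library lay below every control library. The fall was 2.53-fold, a log2 fold change of -1.34 with an SE of 0.08 (adjusted p = 1.16e-13).

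COL3A1 (ENSG00000168542.8, chr2:189839099-189877472, plus strand) encodes the single chain of type III collagen, abundant in hollow organs and healing tissue. It stood at 371.9, 317.6 and 353.3 CPM in control and at 158.3, 151.5 and 151.1 CPM in KO. The groups were far apart and the KO libraries were close to each other. The fall was 2.26-fold, a log2 fold change of -1.18 with an SE of 0.07 (adjusted p = 1.66e-13).

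COL1A1 (ENSG00000108821.9, chr17:48261462-48278993, minus strand) moved the other way. It was scarce in control, at 3.61, 2.46 and 1.97 CPM from 81, 60 and 50 counts, and stood at 12.0, 12.3 and 12.4 CPM in KO. The rise was 4.62-fold, a log2 fold change of 2.21 with an SE of 0.15 (adjusted p = 9.73e-13). The 3 KO libraries were nearly alike, and the highest control library was far under the lowest KO library.

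The other fibrillar chains that rose were COL24A1 and 2 chains of type V collagen, COL5A2 and COL5A3. Type V collagen is built into type I fibrils and limits their width. COL5A2, which lies 19151 bases from COL3A1 on chromosome 2 and is read from the opposite strand, stood at 134.5, 131.9 and 140.7 CPM in control and at 215.9, 189.3 and 193.8 CPM in KO. Its log2 fold change was 0.56 with an SE of 0.07 (adjusted p = 4.72e-07), so that these adjoining genes differed in opposite directions. COL5A3 had 8, 8 and 7 counts in control and 13, 22 and 26 in KO, a log2 fold change of 1.49 with an SE of 0.34 (adjusted p = 0.00113). COL24A1 had 4, 1 and 4 counts in control and 11, 12 and 13 in KO, and the summed counts of 9 and 36, scaled to library size, gave a ratio of 4.31 with a 95% interval of 2.04 to 10.2 that covers counting error only. Both of these chains were higher in every KO library than in any control library, at levels under 1 CPM on average.

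COL5A1, the main partner of COL5A2, was not called. It stood at 119.9, 109.6 and 105.6 CPM in control and at 131.8, 128.2 and 117.0 CPM in KO, so that the groups overlapped (log2 fold change 0.17 ± 0.07 SE, adjusted p = 0.0815). COL27A1, a cartilage-type fibrillar chain, stood at 28.1, 31.4 and 31.7 CPM in control and at 40.0, 40.5 and 37.7 CPM in KO. Its groups did not overlap and its adjusted p was 0.000836, but its 1.29-fold difference lay just under the threshold. It passed when control replicate 2, control replicate 3 or KO replicate 3 was left out. COL2A1, COL11A1 and COL11A2, chains of cartilage fibrils, were not tested, with 0 to 1, 0 to 1 and 1 to 8 counts per library.

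Among basement membrane chains the common pair rose and the rest were not called. Of 6 members 5 were tested, COL4A1 and COL4A2 rose, none fell, and the median log2 fold change was 0.24. COL4A1 (ENSG00000187498.10, chr13:110801310-110959504, minus strand) and COL4A2 (ENSG00000134871.13, chr13:110958159-111165556, plus strand) form the type IV trimer found in nearly all basement membranes. COL4A1 stood at 110.5, 105.6 and 113.1 CPM in control and at 232.0, 217.3 and 202.9 CPM in KO. The rise was 1.98-fold, a log2 fold change of 0.99 with an SE of 0.07 (adjusted p = 6.78e-12). COL4A2 stood at 244.1, 214.8 and 220.2 CPM in control and at 407.6, 390.6 and 321.8 CPM in KO. The rise was 1.65-fold, a log2 fold change of 0.72 with an SE of 0.08 (adjusted p = 3.60e-08). In both genes every KO library lay above every control library, and KO replicate 3 was the lowest of its group.

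These genes lie head to head and share a promoter region, which is shown because the pair rose together. In the RefSeq promoter table (GRCh38.p14, 250 bases before to 50 after each start) their starts, at positions 110307157 and 110307284 of chromosome 13, are 127 bases apart and their windows share 226 bases. The window of COL4A2, chr13:110307034-110307333 on the plus strand, is printed 5′ to 3′ with a CCAAT box (CCAAT) and a GC box (GGGCGG) in capitals, each searched on both strands.
COL4A2: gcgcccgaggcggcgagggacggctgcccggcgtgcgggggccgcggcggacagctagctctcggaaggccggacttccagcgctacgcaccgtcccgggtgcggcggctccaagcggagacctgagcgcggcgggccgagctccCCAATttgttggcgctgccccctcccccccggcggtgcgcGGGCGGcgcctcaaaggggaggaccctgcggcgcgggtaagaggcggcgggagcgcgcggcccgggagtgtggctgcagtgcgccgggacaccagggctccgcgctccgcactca
Its GC content was 77.7%, where the median of all windows was 58.7%. GGGCGG occurred in 44.95% of all 35114 windows and CCAAT in 34.6%, so that neither is particular to this pair. The exact forkhead string TGTTTAC, searched on both strands, occurred in 3.42% of all windows. It occurred in none of the 44 windows of the 32 collagen genes that the table holds. Its core GTTTAC, which overlaps it, occurred in 7.21% of all windows and in windows of COL12A1, COL17A1, COL21A1 and COL24A1. Variant forms of the forkhead motif were not searched, so whether these windows hold a forkhead site was not tested. TATAAA occurred in 11.5% of all windows and in 8 collagen windows. COL1A1, COL1A2, COL2A1, COL3A1, COL5A2, COL6A1, COL6A5, COL8A1, COL9A3, COL14A1, COL20A1 and COL22A1 had no entry.

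The other type IV genes lie in head-to-head pairs as well. The nearest starts are 380 bases apart for COL4A6 and COL4A5 and 419 bases apart for COL4A4 and COL4A3. Another listed start of COL4A6 lies 1416 bases from that of COL4A5, and their windows share 0 bases. COL4A5, a chain of kidney and smooth muscle basement membranes, stood at 52.6, 56.2 and 55.8 CPM in control and at 68.1, 64.5 and 62.0 CPM in KO. Its groups did not overlap (log2 fold change 0.24 ± 0.07 SE, adjusted p = 0.0152), but the 1.18-fold difference was under the threshold. COL4A6 had a log2 fold change of -0.29 with an SE of 0.14 (adjusted p = 0.132) and overlapping groups, and it was called lower when KO replicate 1 was left out (-0.44, adjusted p = 0.0331). COL4A4 had a log2 fold change of -0.24 with an SE of 0.35 (adjusted p = 0.644), and COL4A3, with 1 to 9 counts per library, was not tested.

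FACIT chains split. Of 10 members 4 were tested, COL9A2 and COL14A1 fell, COL12A1 rose, and COL16A1 was not called. The median log2 fold change was -0.24, but it turned to 0.050 among genes of at least 50 counts, where COL14A1 left the class. COL12A1, which coats type I fibrils in dense tissue under load, had the highest CPM of all collagens in both groups. It stood at 456.3, 461.9 and 485.6 CPM in control and at 692.3, 605.7 and 554.5 CPM in KO. The groups were apart but the KO libraries were spread, and the rise was 1.32-fold, a log2 fold change of 0.40 with an SE of 0.08 (adjusted p = 0.000165). It fell short of 1.3-fold when either control replicate 1 or KO replicate 1 was left out (0.37 and 0.31 on the log2 scale).

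COL9A2, a chain of the type IX collagen that decorates cartilage fibrils, stood at 45.7, 36.6 and 41.4 CPM in control and at 27.5, 30.4 and 26.6 CPM in KO. Every KO library lay below every control library, and the fall was 1.46-fold, a log2 fold change of -0.55 with an SE of 0.09 (adjusted p = 2.18e-05). Its partner chains COL9A1 and COL9A3 had at most 1 and 2 counts. COL14A1, a fibril-bound chain of skin and tendon, had 24, 22 and 32 counts in control and 6, 8 and 9 in KO, a log2 fold change of -1.64 with an SE of 0.32 (adjusted p = 0.000216). Of 8 tested genes within 1 Mb of COL14A1, 4 were lower and none higher, where 8.39% and 7.57% of all tested genes were. Their median log2 fold change was -0.31. Over all 25 tested collagens the medians of such neighbours ran from -0.31 for COL14A1 to 0.30 for COL12A1, of whose 6 neighbours 3 were higher. These 2 genes are named as the extremes of the 25, and a local effect was not tested. COL9A2, at 0.25, lay opposite to its own fall, and COL27A1 lay at -0.28. COL16A1 had a log2 fold change of 0.06 with an SE of 0.12 (adjusted p = 0.737). COL19A1 had 3 to 8 counts per library, COL20A1 and COL21A1 had 0 to 1, and COL22A1 had 0 in every library, which allows up to 0.16 CPM in the shallowest of them.

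The promoter window of COL9A2 (RefSeq, GRCh38.p14, chr1:40317237-40317536, minus strand) is shown as 1 of the 2 windows the table holds for collagens that fell. It was chosen after the values were seen. Capitals mark GGGCGG on either strand, of which it holds 3 copies, 2 of them overlapping, and it has no CCAAT.
COL9A2: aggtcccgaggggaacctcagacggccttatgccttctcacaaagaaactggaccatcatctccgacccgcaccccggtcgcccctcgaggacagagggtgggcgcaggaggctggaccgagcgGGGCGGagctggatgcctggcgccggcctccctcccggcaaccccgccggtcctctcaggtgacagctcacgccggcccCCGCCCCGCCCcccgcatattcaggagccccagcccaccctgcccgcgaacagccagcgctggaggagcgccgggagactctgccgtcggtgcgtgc
Its GC content was 71.7%. The other window, of COL28A1 (chr7:7535824-7536123, minus strand), differs in composition, with 38.0% GC, no GGGCGG and 1 CCAAT, in capitals.
COL28A1: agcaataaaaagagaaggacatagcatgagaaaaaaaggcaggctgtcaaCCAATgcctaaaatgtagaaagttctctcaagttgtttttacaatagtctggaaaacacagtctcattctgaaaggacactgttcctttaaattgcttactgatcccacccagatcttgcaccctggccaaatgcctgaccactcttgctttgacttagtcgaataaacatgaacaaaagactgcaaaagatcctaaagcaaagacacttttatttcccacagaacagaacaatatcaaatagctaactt
The 2 windows thus shared neither of these motifs.

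Transmembrane collagens were scarce. Of 4 members only COL17A1, the hemidesmosomal collagen that ties basal epithelial cells to the basement membrane, was tested. It had 14, 17 and 17 counts in control and 19, 23 and 33 in KO, or 0.66 ± 0.04 and 1.12 ± 0.26 CPM. Its log2 fold change of 0.75 (SE 0.28) was called at an adjusted p of 0.0414, but the call was lost in 7 of 11 alternatives, with adjusted p from 0.0579 to 0.252. Those included DESeq2 (0.211), no filter on low counts (0.0777) and the removal of any library but KO replicate 2. COL13A1 had 4 to 11 counts per library, COL25A1 0 to 6 and COL23A1 0 to 1. The COL25A1 counts summed to 15 in control and 3 in KO, a ratio of 4.65 lower in KO with a 95% counting interval of 1.31 to 25.03. Intervals were also taken for the untested COL11A2, a ratio of 1.97 lower in KO (0.81 to 5.3), and COL8A2, 1.23 higher in KO (0.39 to 4.0). Both of the latter intervals include equal levels. None of these genes was tested between groups.

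Type VI collagen, which forms beaded filaments around cells, rose in its main pair. Of 5 members 3 were tested, COL6A1 and COL6A2 rose and COL6A3 was not called, with a median log2 fold change of 0.61. COL6A1 stood at 142.4, 111.7 and 122.7 CPM in control and at 193.9, 199.1 and 183.4 CPM in KO. Its log2 fold change was 0.61 with an SE of 0.08 (adjusted p = 4.59e-07). COL6A2 stood at 26.0, 20.2 and 22.2 CPM in control and at 35.9, 38.3 and 33.0 CPM in KO, a log2 fold change of 0.65 with an SE of 0.09 (adjusted p = 3.13e-06). These adjoining genes on chromosome 21, 93061 bases apart, rose 1.53-fold and 1.57-fold, and in both every KO library lay above every control library. COL6A3, the third chain of the usual type VI molecule, had 8, 17 and 22 counts in control and 14, 20 and 19 in KO (log2 fold change 0.28 ± 0.31 SE, adjusted p = 0.543), while COL6A5 and COL6A6 had 0 to 1 and 0 to 4 counts.

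The remaining collagens included network-forming and multiplexin chains. Of 8 members 4 were tested, of which 3 rose and 1 fell, and the median log2 fold change was 0.50. COL8A1 (ENSG00000144810.11, chr3:99357319-99518070, plus strand), a short-chain collagen of vessel walls and the corneal basement membrane, stood at 8.74, 9.62 and 9.63 CPM in control and at 30.8, 27.2 and 26.3 CPM in KO. The rise was 2.999-fold, a log2 fold change of 1.58 with an SE of 0.10 (adjusted p = 2.08e-13), and the groups were far apart. Its partner COL8A2 had 1 to 5 counts per library and was not tested.

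COL18A1, the basement membrane proteoglycan from which endostatin is cut, stood at 25.4, 20.8 and 20.3 CPM in control and at 37.8, 34.6 and 29.2 CPM in KO. Its log2 fold change was 0.61 with an SE of 0.10 (adjusted p = 2.02e-05). SLC19A1 overlaps 18.5% of its exon length on the opposite strand, and the strand setting of the counting was not stated, so part of these counts is uncertain. COL7A1, the anchoring fibril under stratified epithelium, stood at 258.1, 272.4 and 235.0 CPM in control and at 326.4, 353.2 and 321.8 CPM in KO. Its rise was 1.31-fold (log2 fold change 0.39 ± 0.07 SE, adjusted p = 0.000113), and it fell short of 1.3-fold when control replicate 3 or KO replicate 2 was left out and among genes of at least 50 counts (0.33, 0.35 and 0.37 on the log2 scale).

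COL28A1, a scarce collagen of nerve basement membranes, had 18, 15 and 12 counts in control and 2 in each KO library. The summed counts of 45 and 6 gave a ratio of 6.97 lower in KO, with a 95% counting interval of 2.96 to 19.98, and its adjusted p was 9.57e-05. COL10A1 had 0 to 5 counts, COL15A1 1 to 14 and COL26A1 0 to 1. In all, the 19 untested collagens had at most 14 counts in any library, and 9 of them had at most 1.

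To ask whether chains that share a trimer moved together, the log2 ratio of their RPKM was taken in each library, for the 6 of 10 known pairs in which both were tested. With 3 libraries against 3 an exact two-sided permutation test cannot give a p under 0.1, and the adjusted p over the 6 pairs was then 0.15, so no ratio could pass 0.05. The ratio of COL1A1 to COL1A2 was 0.037, 0.031 and 0.023 in control and 0.333, 0.360 and 0.375 in KO. On the log2 scale it went from -5.06 ± 0.35 to -1.49 ± 0.09, a difference of 3.57 (exact p = 0.1), since the scarce chain rose and the common chain fell. COL1A2 exceeded COL1A1 in all 6 libraries, whereas the usual type I molecule holds more COL1A1 than COL1A2 chains.

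The ratio of COL6A1 to COL6A2 lay between 5.01 and 5.36 in all 6 libraries. Its log2 difference was -0.03 and its groups overlapped (exact p = 0.4, adjusted 0.48). COL4A1 to COL4A2 went from -0.65 ± 0.09 to -0.38 ± 0.10 on the log2 scale, a difference of 0.27 with groups that did not overlap (exact p = 0.1). COL4A5 to COL4A6 differed by 0.52 and COL5A1 to COL5A2 by -0.39, both without overlap (exact p = 0.1 each). COL6A1 to COL6A3 differed by 0.23 (exact p = 0.7), with COL6A3 near the detection limit, and turned to -0.05 without control replicate 3. Gene lengths cancel in these differences, but the ratios themselves depend on the length used.

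**Figure D3:**
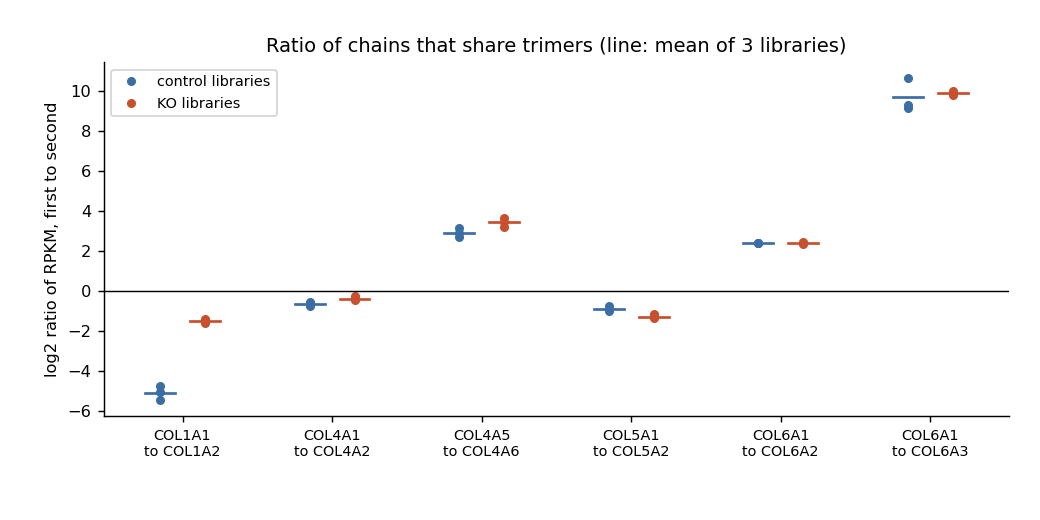
Log2 ratio of the RPKM of chains that share trimers, 1 point per library (blue control, red KO) with a line at the mean of 3 libraries. COL1A1 to COL1A2 rises from -5.06 to -1.49, while COL6A1 to COL6A2 lies at 2.41 in control and 2.38 in KO.

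The make-up of the collagen transcripts shifted more than their sum. The collagens took 0.209% ± 0.0045 of all counts in control and 0.251% ± 0.0174 in KO (SD, n = 3). Their summed RPKM was 217, 196 and 205 in control and 240, 231 and 215 in KO, so that the highest control library lay above the lowest KO library. The groups did not overlap with the longest transcript as length (290 to 320 in control, 330.1 to 374 in KO), in summed CPM (2016 to 2161 and 2331 to 2671) or in percent of counts (0.204% to 0.212% and 0.232% to 0.267%). The fibrillar share of the summed RPKM was 44.95%, 43.98% and 45.3% in control and 30.5%, 29.4% and 31.3% in KO. The summed fibrillar level was 92.2 ± 5.56 RPKM in control and 69.5 ± 3.16 RPKM in KO, within which COL3A1 went from 51.4 to 22.7 RPKM. COL1A2 went from 9.67 to 3.82 RPKM. The other 6 of the 8 tested fibrillar chains had positive log2 fold changes, of which 4 were called, so the class did not fall as a whole. The basement membrane share was 11.7%, 12.1% and 12.0% in control and 18.1%, 17.7% and 16.9% in KO. The beaded filament share was 13.1% ± 0.97 and 18.1% ± 0.63, and the FACIT share, at 17.2% ± 0.61 and 17.5% ± 0.70, differed by less than its spread. Transmembrane collagens held 0.077% and 0.081%. With the longest transcript as length the shares were 38.8% and 24.4% for fibrillar and 20.1% and 28.7% for basement membrane chains, with the same direction between groups, while the small FACIT and transmembrane differences turned around.

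**Figure D4:**
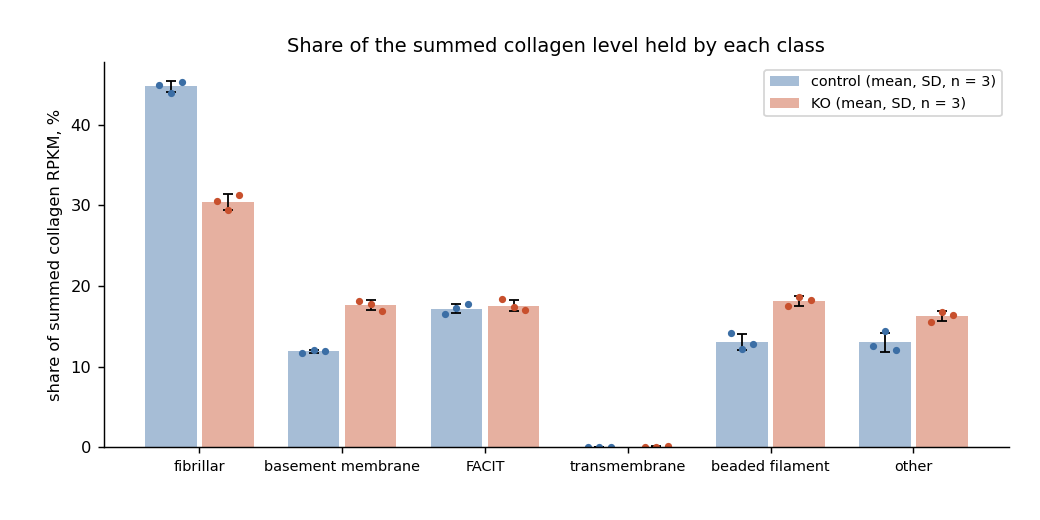
Share of the summed collagen RPKM held by each class, as the mean of 3 libraries with SD bars and 1 point per library (blue control, red KO). The fibrillar share is 44.8% in control and 30.4% in KO, and the basement membrane share 11.9% and 17.6%.

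Genes that make, receive or cleave collagen were taken from 5 lists with 59 members, of which 50 were tested, 4 fell and 11 rose, including FKBP10 and MMP13, which passed the filter through 1 group only. Of all tested genes 8.39% fell and 7.57% rose. The list members' median log2 fold change was 0.12, beside -8e-04 for all tested genes. Among the 14 hydroxylases and glycosyltransferases that modify new chains, all tested, 2 rose and none fell (median 0.12). P3H1, a prolyl 3-hydroxylase, rose from 79.3 ± 7.78 to 108 ± 4.63 CPM (log2 fold change 0.44 ± 0.08 SE, adjusted p = 4.95e-05). P3H3, its relative, rose at a low level (log2 fold change 1.12 ± 0.28 SE, adjusted p = 0.00306). P4HB, the shared subunit of the prolyl 4-hydroxylases, had a log2 fold change of 0.06 (adjusted p = 0.585).

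Among 14 chaperone and secretion genes, all tested, 2 rose and 2 fell (median -0.01). SPARC, a collagen-binding matrix protein, rose from 65.0 ± 4.01 to 93.8 ± 2.14 CPM (log2 fold change 0.53 ± 0.07 SE, adjusted p = 1.92e-06). FKBP14, a prolyl isomerase of the endoplasmic reticulum, rose from 29.5 ± 3.48 to 43.0 ± 1.22 CPM (log2 fold change 0.55, adjusted p = 1.44e-05). KLHL12, an adaptor for the export of large procollagen, fell from 52.4 ± 1.93 to 39.5 ± 0.54 CPM (log2 fold change -0.41, adjusted p = 0.000142), a call lost without control replicate 3. FKBP10, a collagen chaperone with 4 to 22 counts per library, fell (log2 fold change -1.30, adjusted p = 0.00946), a call lost with DESeq2 and without control replicate 2. It passed the filter on low counts only through the control libraries, where it is high, so that the filter required a difference. SERPINH1, the collagen chaperone HSP47, had a log2 fold change of -0.03 (adjusted p = 0.821).

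Among 13 genes of propeptide processing and cross-linking, 10 were tested, 2 rose and 1 fell (median 0.13). LOXL4, a lysyl oxidase that cross-links collagen, stood at 5.84, 5.65 and 5.03 CPM in control and at 16.1, 17.2 and 14.02 CPM in KO (log2 fold change 1.52 ± 0.11 SE, adjusted p = 1.43e-11). LOX, the founding member of that family, rose from 42.3 ± 1.31 to 58.3 ± 5.40 CPM (log2 fold change 0.46, adjusted p = 6.00e-05). ADAMTS2, which removes the amino-terminal propeptide of fibrillar procollagens, fell from 8.73 ± 0.42 to 6.08 ± 0.35 CPM (log2 fold change -0.51, adjusted p = 0.00101).

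Among 10 collagen receptors, 7 were tested, 2 rose and 1 fell (median 0.26). ITGA1, the integrin subunit that prefers type IV collagen, stood at 154.2, 151.6 and 158.3 CPM in control and at 90.8, 86.0 and 98.2 CPM in KO. This fall was 1.69-fold (log2 fold change -0.76 ± 0.07 SE, adjusted p = 1.88e-09). Its partner subunit ITGB1 rose from 950 ± 52.5 to 1253 ± 112 CPM (log2 fold change 0.40, adjusted p = 0.000168), a call lost without control replicate 1, KO replicate 1 or KO replicate 3. DDR2, a receptor kinase for fibrillar collagen with 16 to 49 counts, rose (log2 fold change 0.96, adjusted p = 0.00654), a call lost with DESeq2 and without KO replicate 2.

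Among 8 collagen-cleaving proteases, 5 were tested, 3 rose and none fell (median 0.50). MMP14, a membrane-bound collagenase that also activates MMP2, stood at 61.9, 51.8 and 52.7 CPM in control and at 118.5, 119.8 and 105.1 CPM in KO (log2 fold change 1.05 ± 0.08 SE, adjusted p = 2.47e-11). MMP2, a gelatinase, rose from 197 ± 29.0 to 279 ± 12.9 CPM (log2 fold change 0.50, adjusted p = 2.15e-05). MMP13, a collagenase, had summed counts of 5 in control and 39 in KO, a ratio of 8.40 with a 95% counting interval of 3.31 to 27.3 (adjusted p = 8.78e-05). MMP13 passed the filter on low counts only through the KO libraries, so that the filter itself required a difference.

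**Figure D5:**
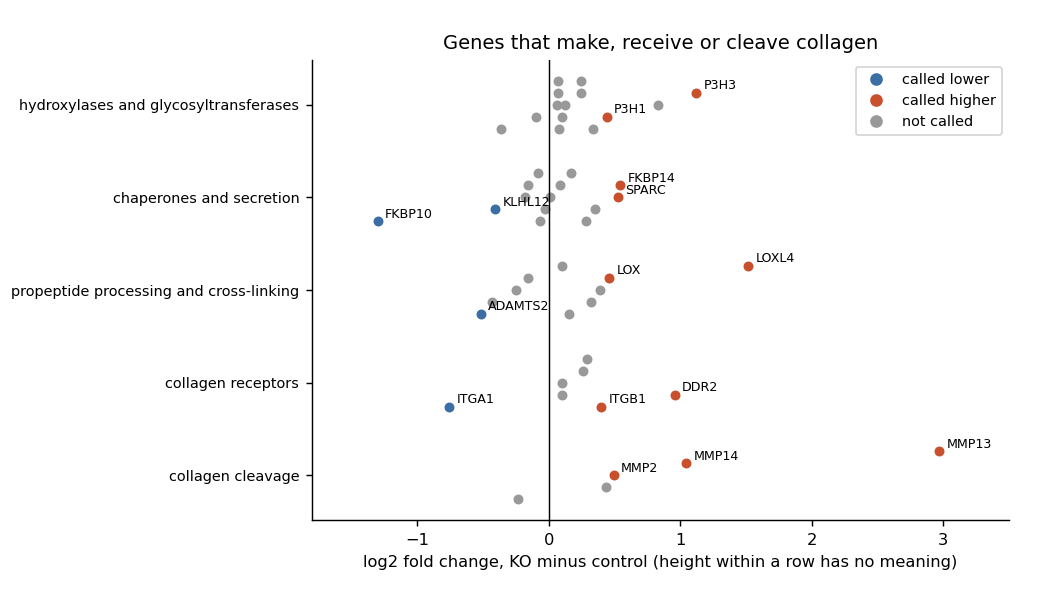
Log2 fold change of KO against control for the 50 tested genes of 5 collagen pathway lists, 1 point per gene, with the 15 called genes named and coloured (4 lower in blue, 11 higher in red). ITGA1 lies at -0.76, LOXL4 at 1.52 and MMP14 at 1.05, while most hydroxylases and chaperones are not called.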

How the data were processed

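RNA-seq libraries of J82 cells, 3 labelled control and 3 FOXC1 KO, were grouped by their titles. The deposited values were raw counts per gene. The authors had made poly(A)-selected libraries (KAPA mRNA HyperPrep), aligned paired reads to hg19 with STAR and assigned them to GENCODE genes with featureCounts. The tool versions, the strand setting and the handling of multi-mapping reads were not given in the sources used here. Without them, counts of overlapping or near-identical genes are uncertain. There were 0 columns from other samples.

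The counts were filtered with filterByExpr, scaled with TMM and compared in edgeR 4.0.16 by its quasi-likelihood F test with robust dispersions (R 4.3.3), with group as the only term and Benjamini-Hochberg adjustment over 15647 genes. Calls needed over 1.3-fold and an adjusted p under 0.05, the study's thresholds. SEs were derived from the F statistic. DESeq2 1.42.0, the study's tool, and other normalizations, filters, fold thresholds, gene lengths, a replicate block and the removal of each library were run as alternatives. Calculations were tested on simulated data. RPKM used merged exon lengths and coordinates of a GENCODE annotation lifted to GRCh37, the same assembly as hg19, in which 55538 genes (96.05%) were found. Gene symbols were taken from it too. The authors had counted with an older GENCODE version, so these lengths can differ from the exons that were counted. Ranks of level, class shares and the ratios themselves carry this uncertainty. Intervals at the 95% level and floors (3 counts) cover counting error only.

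The members, classes, pathway and marker lists (34 marker symbols, 33 found) and tests were chosen with earlier results of these data known. Every collagen was accounted for. Values in every library were given for those called or with at least 10 CPM on average, and the 4 called genes with the smallest p were named from each pathway list. The promoters of the called collagens with the smallest p were to be printed, but had no entry in the table, so COL9A2 and COL28A1 were taken instead. Replicate libraries differed beyond sampling noise (chi-square per gene from 2.74 to 9.15). That spread does not show whether they came from separate clones or cultures. Each library was counted as 1 sample.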

Additional observations from a re-analysis of the deposited data

How the results depend on the processing

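No single collagen changed direction under another test, normalization, filter, replicate block or library left out. For the counts of calls, class medians, FOXC1, partner ratios and class shares, 151 recomputed values kept their call, stayed within their spread or, for counts, stayed near the main count. Another 29 moved, and 1, a partner ratio, reversed. A count, also of a single pathway list, could stay by this rule while it changed. The count of collagens higher, 13 in the main fit and 9 among genes of at least 50 counts, was taken as staying. Of the medians that moved, those of the transmembrane and FACIT classes also changed sign. For single genes and single pathway lists, 560 values stayed, 20 lost a call, 4 gained one and 25 counts moved. Left-out libraries gave 5 to 6 collagens lower and 11 to 13 higher, and 4 to 5 pathway genes lower and 10 to 14 higher. Among genes of at least 50 counts 3 collagens were lower. At 2-fold, 4 collagens and 4 pathway genes were higher and 1 pathway gene was lower, where 2.02% and 2.05% of all tested genes were. With no fold threshold 19 pathway genes were higher. The shares of all genes were not taken without a fold threshold or with a library left out. Those counts show only how the calls depend on the processing. The 2-fold counts include genes that passed the filter on low counts through 1 group only.

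Class medians moved where the set of members changed, and for beaded filament chains also without control replicate 1 or 2, for which the cause was not tested. With DESeq2, no filter and at least 50 counts, the median log2 fold changes were 0.17, 0.17 and 0.26 for fibrillar chains, 0.43, 0.41 and 0.47 for basement membrane chains and -0.45, -0.43 and 0.050 for FACIT chains. With DESeq2 and no filter they were -1.44 and -1.40 for transmembrane chains, where untested members joined COL17A1, and 0.30 and 0.28 for beaded filament chains. Left-out libraries gave medians of 0.53 to 0.70 for beaded filament, 0.43 to 0.49 for fibrillar, 0.20 to 0.26 for basement membrane, -0.28 to -0.22 for FACIT and 0.53 to 0.89 for transmembrane chains.

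Left-out libraries gave partner differences of 3.39 to 3.74 for COL1A1 to COL1A2, 0.21 to 0.31 for COL4A1 to COL4A2, 0.42 to 0.64 for COL4A5 to COL4A6, -0.45 to -0.33 for COL5A1 to COL5A2, -0.06 to -0.01 for COL6A1 to COL6A2 and -0.05 to 0.69 for COL6A1 to COL6A3. The last reversed without control replicate 3 (-0.052), and its cause was not tested. FOXC1 ranged from 0.25 to 0.35.

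With the longest transcript as length, the class shares in control and KO were 38.8% and 24.4% for fibrillar, 20.1% and 28.7% for basement membrane, 12.0% and 15.9% for beaded filament and 10.8% and 13.1% for other chains, and 18.2% and 17.9% for FACIT chains, which turned the small FACIT difference around. The transmembrane share, 0.0853% and 0.0758%, turned as well.

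Deviations of same-numbered libraries correlated at -0.05, -0.18 and 0.10, so no pairing by number was seen. With 3 libraries per group this check cannot exclude a pairing. With the replicate number as a block, 5 collagens were lower and 13 higher, and COL1A2 stood at -1.33. Collagens under about 50 counts were limited by depth.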

Other observations

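Outside the tested genes, 2 scarce genes of the collagen pathway were picked out after their values were seen. LOXL1, a lysyl oxidase of elastic fibres, had summed counts of 3 in control and 28 in KO, a ratio of 10.1 with a 95% counting interval of 3.10 to 51.6. MMP9, a gelatinase, had 7 and 39, a ratio of 5.997 with an interval of 2.65 to 15.9. These intervals cover counting error only, and no test between groups was made.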
